A study of Mus musculus with 6 samples.

Results

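The genes described here are the FGF receptors Fgfr1 to Fgfr4, the receptor-like gene Fgfrl1, the Sprouty genes Spry1, Spry2 and Spry4 and the ETS factor genes Etv4 and Etv5. They were chosen by symbol, as 10 of the 46983 genes in the count table, and each was found by its Ensembl identifier. RNA of GFP-positive neural crest cells (NCCs) sorted at E11.25 was sequenced in 3 control libraries and 3 libraries deficient for BAF155 and BAF170. Every library carried 1 Wnt1 Cre allele and 1 Rosa26 mTmG reporter allele, which switches to GFP where Cre has acted. Control embryos were flox/+ at both BAF155 and BAF170, and deficient embryos were flox/flox at both, so that loss of both copies of each gene was set against loss of a copy of each. Wnt1 Cre is active in the dorsal neural tube as well as in the crest, so the gate can hold cells of both. The methods name 3 embryos per genotype, but the labels do not tie a library to an embryo, and the p-values measure the spread between these libraries.

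FGF receptors are tyrosine kinases at the cell surface that bind FGF ligands together with heparan sulphate and signal through the Ras-Erk cascade. The signal switches on its own brakes and effectors, among them the Sprouty proteins, which restrain Ras-Erk signalling, and the PEA3 factors Etv4 and Etv5, which carry the signal to the genome. In the pharyngeal arches and frontonasal region, FGF from the epithelium sustains the crest mesenchyme, and Sprouty and Etv transcripts are widely used as readouts of the signal.

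RefSeq promoter windows were at hand for 7 of the 10 genes (9 windows). The 250 bases upstream of the first listed start are printed for 5 of them: Fgfr2, the receptor that passed the call, Spry2 and Etv5, the feedback genes with the smallest differences, and Spry1 and Fgfrl1, whose windows held a searched motif. The build is GRCm38.p6, and the regions are chr7:130266809-130267058 on the minus strand for Fgfr2, chr5:108693979-108694228 on the plus strand for Fgfrl1, chr3:37639697-37639946 on the plus strand for Spry1, chr14:105896820-105897069 on the minus strand for Spry2 and chr16:22439571-22439820 on the minus strand for Etv5. Capitals mark the TEAD core GGAATG in Spry1 and the ETS core CGGAAG in Fgfrl1, searched on both strands.
Fgfr2: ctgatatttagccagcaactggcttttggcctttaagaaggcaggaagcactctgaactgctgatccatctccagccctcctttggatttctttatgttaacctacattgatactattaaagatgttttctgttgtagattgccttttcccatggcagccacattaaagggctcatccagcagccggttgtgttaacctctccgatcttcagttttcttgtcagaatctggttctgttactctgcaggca
Fgfrl1: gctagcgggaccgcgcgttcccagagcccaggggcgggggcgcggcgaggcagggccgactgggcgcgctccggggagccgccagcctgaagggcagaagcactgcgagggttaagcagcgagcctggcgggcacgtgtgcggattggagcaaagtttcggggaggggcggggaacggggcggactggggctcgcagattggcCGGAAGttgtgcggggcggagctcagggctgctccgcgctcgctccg
Spry1: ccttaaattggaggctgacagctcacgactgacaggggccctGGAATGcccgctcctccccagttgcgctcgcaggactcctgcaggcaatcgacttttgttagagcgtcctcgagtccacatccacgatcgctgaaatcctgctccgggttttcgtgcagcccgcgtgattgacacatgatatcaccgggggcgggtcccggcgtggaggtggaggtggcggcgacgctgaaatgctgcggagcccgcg
Spry2: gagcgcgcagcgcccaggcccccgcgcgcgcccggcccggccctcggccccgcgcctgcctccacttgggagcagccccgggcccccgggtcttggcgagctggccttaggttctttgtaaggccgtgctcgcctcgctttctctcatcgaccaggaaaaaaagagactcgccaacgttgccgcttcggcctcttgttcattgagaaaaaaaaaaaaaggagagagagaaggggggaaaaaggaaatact
Etv5: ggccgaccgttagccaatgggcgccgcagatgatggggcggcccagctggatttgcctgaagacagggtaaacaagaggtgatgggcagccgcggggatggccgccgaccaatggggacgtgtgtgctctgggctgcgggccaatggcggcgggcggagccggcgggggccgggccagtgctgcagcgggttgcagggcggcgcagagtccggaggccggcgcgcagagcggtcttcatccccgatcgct
The TEAD core began 208 bases upstream of the start of Spry1 and was found in 1 of the 9 windows, against 12.6% of all 32851 windows of this length. The ETS core began 47 bases upstream of the start of Fgfrl1, also in 1 of the 9 windows, against 13.6% of all windows. The AP-1 motif TGANTCA was in none of the 9 windows and in 6.75% of all. No searched motif overlapped another in these windows. The printed windows differ in base composition, from 44.0% G and C with 2 CpG sites in Fgfr2 to 73.6% with 30 CpG sites in Fgfrl1, beside a median of 52.4% over all windows. These are matches of letters and carry no measurement of binding.

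Libraries held between 8191219 and 19808620 counts, and the deficient libraries were all deeper than the controls. Smarcc1 (encoding BAF155) had 44.1 CPM (counts scaled to a common normalized library size, the usual CPM) in the controls and 26.7 CPM in the deficient libraries, with a log2 fold change of −0.71, and Smarcc2 (encoding BAF170) had 91.5 and 85.0 CPM with −0.11. Counts per gene cannot separate the floxed exons. Markers of embryonic crest and neural tube cells (51 genes tested of 5 lists) summed to between 358 and 645 CPM in the controls and between 238 and 311 CPM in the deficient libraries. The 14 macrophage markers, all tested, summed to between 12357 and 14333 CPM in the controls and between 14452 and 15779 CPM in the deficient libraries. Each of these sums separated the groups (exact permutation test, two-sided p = 0.1, the smallest that 3 against 3 libraries allow). Only markers that passed the filter on low counts were summed. Ret (autonomic), En1 and Wnt1 (neural tube) passed through their control values only, being under 0.823 CPM in every deficient library. Their means were 2.20, 0.941 and 0.869 CPM in the controls, against 0.576, 0.165 and 0.395 CPM in the deficient libraries. The sums that hold them are therefore not independent of the difference. The macrophage sum was above the embryonic sum in every library. Deficient over control, the sums of the 4 crest lists had ratios of 0.422 (sensory), 0.499 (autonomic), 0.547 (mesenchymal) and 0.648 (glial), and that of the neural tube list 0.653 (exact permutation test, two-sided p = 0.2). Lists of other cells also separated the groups at an exact p of 0.1, with mean sums of 32.9 and 12.97 CPM for erythroid markers in the controls and the deficient libraries, 18.8 and 24.8 CPM for neutrophil markers and 189 and 213 CPM for endothelial markers, while muscle markers stood at 85.7 and 80.0 CPM (exact p = 0.5). Kdr alone had 173 and 194 CPM of the endothelial sums. The erythroid list held 4 lower and 2 higher genes of 6 tested (Hba-a1 at a log2 fold change of 0.02 and Hba-a2 at 0.48). The neutrophil list held 1 lower (Ngp, −0.27) and 2 higher of 3 tested. The part of these cell types in the results was not tested. No epithelial marker of 7 passed the filter on low counts. In bulk libraries, fewer cells of a type and less RNA per cell cannot be told apart.

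Compared per length, as CPM per kilobase of exon model, the feedback genes Spry2 and Etv5 stood at the top of the group and the receptors below them. In the controls the order was Spry2 (2.79 ± 0.856 CPM per kilobase, SD, n = 3), Etv5 (2.33 ± 0.396), Fgfr1 (1.95 ± 0.691), Fgfr2 (1.53 ± 0.189) and Fgfrl1 (1.23 ± 0.523). Fgfr3 (0.705 ± 0.253 CPM per kilobase), Spry1 (0.667 ± 0.261), Etv4 (0.283 ± 0.128) and Spry4 (0.275 ± 0.153) followed, and Fgfr4 came last, at no more than 0.0755 CPM per kilobase in any control library. Each of these neighbours overlapped the next in its control values, except Spry4 and Fgfr4. In the deficient libraries Spry2 (2.55 ± 0.362 CPM per kilobase) and Etv5 (2.14 ± 0.201) still came first, and every Etv5 value lay above every Fgfr1 value (1.10 ± 0.261 CPM per kilobase), which was not so in the controls. Lengths are those of the GENCODE M21 exon models, and 5 of the 10 genes carry another identifier version in the count table, so their counted exons may differ.

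Fgfr2, a receptor with splice forms for epithelium and mesenchyme that counts per gene do not separate, fell in the deficient libraries relative to all genes and was the only one of the receptors to be called, although its log2 fold change turned to 0.05 when libraries were scaled to embryonic marker genes. The call, with thresholds from the study's methods, required an adjusted p (Benjamini-Hochberg) no higher than 0.1 together with a log2 fold change of 0.58 or more up or down and a mean level of 2 CPM or more. Fgfr2 (ENSMUSG00000030849.17, chromosome 7 from 130162451 to 133123350, minus strand of GRCm38) had 16.3, 17.5 and 13.7 CPM in the control libraries, in the order of replicates 1 to 3 used throughout, against 10.5, 9.84 and 5.79 CPM in the deficient ones. Every deficient value lay below every control value. Its log2 fold change was −0.87 (standard error 0.21), and the quasi-likelihood test of edgeR gave an adjusted p of 0.0719 (Benjamini-Hochberg). Its gene model shares 314 exon bases with Ctbp2 on the same strand, which is 3.04% of the model.

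Fgfr1 (ENSMUSG00000031565.17, chromosome 8 from 25513654 to 25575718, plus strand), the main FGF receptor of mesenchymal cells, had 20.3, 25.4 and 11.9 CPM in control replicates 1 to 3. The deficient replicates had 13.001, 11.7 and 8.02 CPM. Control replicate 3 lay below deficient replicate 1, so that the groups overlapped. Both groups gave 526 counts in sum, from deficient libraries with more counts in all. The log2 fold change of −0.81 (standard error 0.31) was about as large as that of Fgfr2 but did not pass (adjusted p = 0.149, edgeR, Benjamini-Hochberg). The control values of Fgfr1 had the wider spread, with an SD of 6.83 CPM against 1.95 CPM for Fgfr2. The share of Fgfr1 in the summed CPM of Fgfr1 to Fgfr4 was 46.8 ± 6.23% (SD, n = 3) in the controls and 48.1 ± 3.09% (SD, n = 3) in the deficient libraries, and that of Fgfr2 was 40.2 ± 5.68% and 37.9 ± 1.52%. That of Fgfr3 was 12.5 ± 3.23% and 13.5 ± 3.65%. The groups overlapped in each of these shares.

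Fgfr3 (ENSMUSG00000054252.17, chromosome 5 from 33721674 to 33737068, plus strand), a receptor of neural progenitors and cartilage, had 7.02, 4.68 and 3.45 CPM in the controls, against 3.05, 4.64 and 1.80 CPM in the deficient ones. The groups overlapped, since deficient replicate 2 lay above control replicate 3, and the call was not passed at a log2 fold change of −0.68 (standard error 0.37, adjusted p = 0.270, edgeR, Benjamini-Hochberg). The gene model G630022F23Rik on the other strand shares 998 exon bases with Fgfr3, and the strand setting of the counting is not given in the sources used here. Fgfrl1 (ENSMUSG00000008090.14, chromosome 5 from 108692382 to 108706924, plus strand), which binds FGF but lacks the kinase domain, had 2.34, 5.08 and 2.87 CPM in the controls, against 2.74, 1.22 and 2.33 CPM in the deficient ones. Its highest value was in control replicate 2 and its lowest in deficient replicate 2, with the other libraries interleaved (log2 fold change −0.69, standard error 0.38, adjusted p = 0.260, edgeR, Benjamini-Hochberg).

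Fgfr4 (ENSMUSG00000005320.9, chromosome 13 from 55152640 to 55168759, plus strand), a receptor of muscle progenitors and endoderm, was close to the limit of detection. It had 0, 2 and 3 counts in the controls and 0, 0 and 5 counts in the deficient libraries. A count of 0 allows up to 0.319 CPM in control replicate 1 and up to 0.235 and 0.183 CPM in deficient replicates 1 and 2, counting error only. It did not pass the filter on low counts, and no difference between the groups was detectable at this depth.

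**Figure D1:**
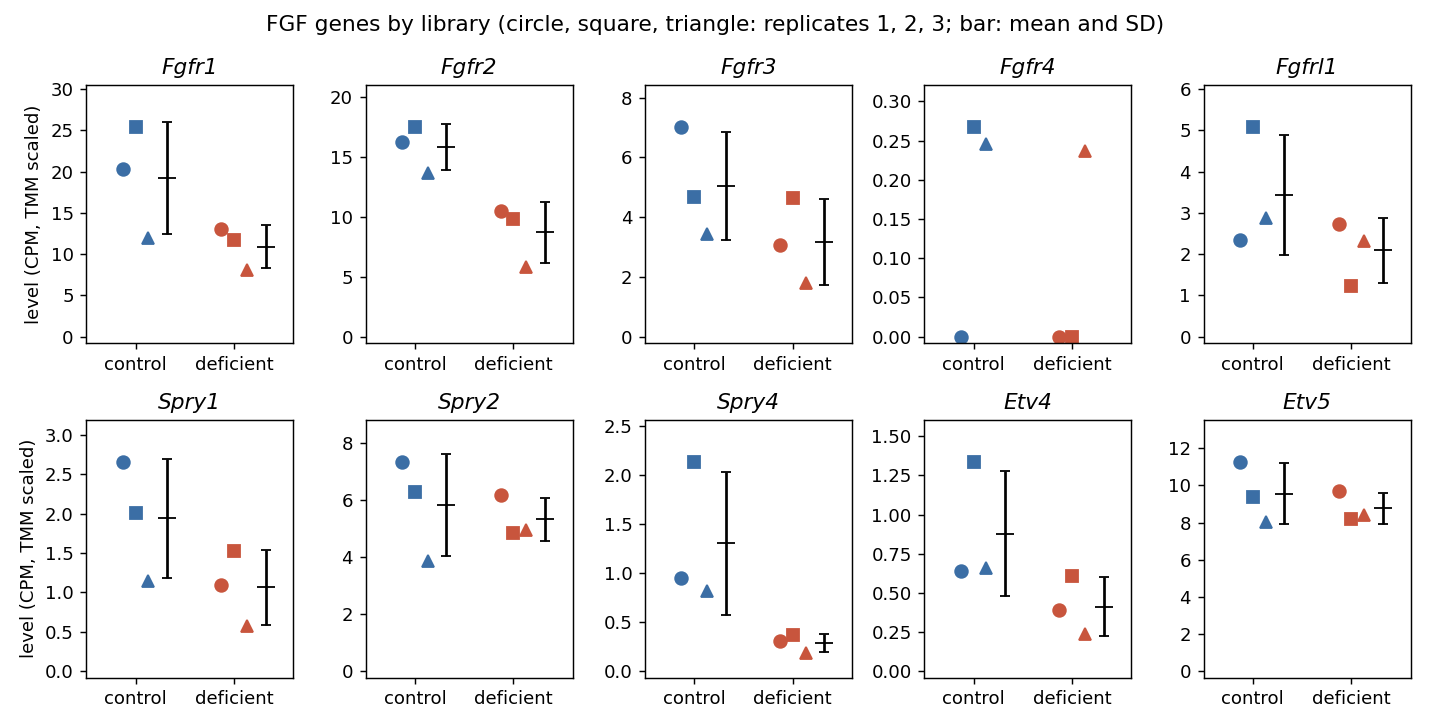
Level of each of the 10 genes (y axis, CPM on normalized library sizes, from 0, with its own scale per gene) in the 3 control and 3 deficient libraries, with group means and SD except for Fgfr4, which has libraries at 0. The groups separate in Fgfr2, Spry4 and Etv4, and for Spry2 and Etv5 the deficient values lie within the range of the control values.

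The Sprouty genes differed from each other in their values. Deficient over control, the ratio of summed counts scaled to library size was 0.232 for Spry4, 0.547 for Spry1 and 0.931 for Spry2, and none of the 3 was called. Spry4 (ENSMUSG00000024427.6, chromosome 18), a feedback inhibitor of Erk signalling that is strongly induced by FGF, had 0.957, 2.14 and 0.821 CPM in the controls, against 0.313, 0.367 and 0.190 CPM in the deficient ones. Every deficient value lay below every control value. These values rest on 9, 16 and 10 counts in the controls and 4, 6 and 4 counts in the deficient libraries. The exact 95% interval of its ratio was 0.115 to 0.441, which covers counting error only. The log2 fold change of −2.11 (standard error 0.58) had an adjusted p of 0.0775 (edgeR, Benjamini-Hochberg), but at a mean of 0.798 CPM Spry4 was under the 2 CPM that a call requires. It passed the filter on low counts through its control values only, so its place among the tested genes is not independent of its difference.

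Spry1 (ENSMUSG00000037211.12, chromosome 3 from 37639947 to 37644598, plus strand), which limits signalling downstream of FGF and Ret, had 2.66, 2.01 and 1.15 CPM in the controls. In the deficient libraries it had 1.10, 1.53 and 0.570 CPM. Deficient replicate 2 lay above control replicate 3, and the call was not passed at a log2 fold change of −0.86 (standard error 0.46, adjusted p = 0.253, edgeR, Benjamini-Hochberg). The gene model Gm42922 on the other strand shares 710 exon bases with Spry1, which is 24.4% of its model. Spry2 (ENSMUSG00000022114.4, chromosome 14 from 105891947 to 105896819, minus strand), the Sprouty gene with the most counts here, had 7.34, 6.29 and 3.86 CPM in the controls, against 6.19, 4.83 and 4.94 CPM in the deficient ones. The deficient values all lay between the lowest and the highest control value. Its log2 fold change was −0.12 with a 95% interval of −0.68 to 0.43 (adjusted p = 0.792, edgeR, Benjamini-Hochberg). Within a library, the ratio of Spry4 to Spry2 was 0.130, 0.340 and 0.213 in the controls and 0.0506, 0.0760 and 0.0385 in the deficient libraries, without overlap. The scaling of a library drops out of this ratio.

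Neither PEA3 factor was called. Etv5 (ENSMUSG00000013089.15, chromosome 16 from 22381309 to 22439719, minus strand) had 11.3, 9.36 and 8.04 CPM in the controls, against 9.71, 8.19 and 8.40 CPM in the deficient ones. All deficient values again fell within the range of the controls. The log2 fold change was −0.12 with a 95% interval of −0.50 to 0.25 (adjusted p = 0.677, edgeR, Benjamini-Hochberg), which is the narrowest interval among the 8 tested genes. Etv4 (ENSMUSG00000017724.14, chromosome 11 from 101769742 to 101785371, minus strand), the close relative of Etv5, had 6, 10 and 8 counts in the controls, or 0.638, 1.34 and 0.656 CPM. The deficient libraries had 5, 10 and 5 counts, or 0.392, 0.611 and 0.237 CPM. Every deficient value lay below every control value, the nearest being 0.611 CPM in deficient replicate 2 and 0.638 CPM in control replicate 1. Etv4 did not pass the filter on low counts and was not tested. Its ratio of summed counts was 0.482, with an exact 95% interval of 0.253 to 0.911 for counting error only.

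**Figure D2:**
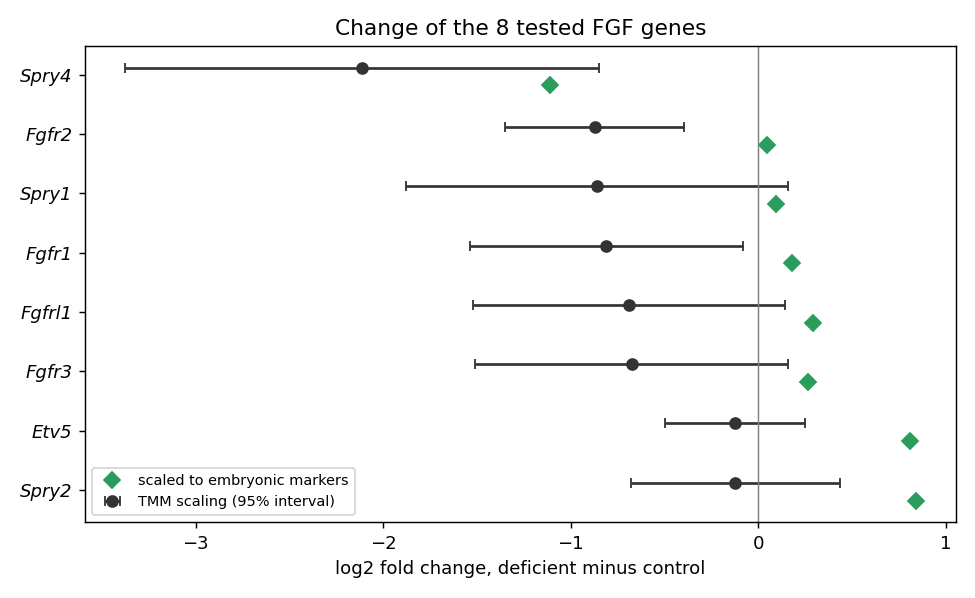
Log2 fold change (x axis, deficient minus control) of the 8 tested genes, with the 95% interval of the quasi-likelihood fit after TMM normalization (circles) and the value with libraries scaled to embryonic marker genes (diamonds). Spry4 lies lowest at −2.11, the receptors and Spry1 lie between −0.87 and −0.68, and Spry2 and Etv5 lie at −0.12. The diamonds stand to the right of their circles because that scaling moved the median of all genes from −0.02 to 0.90.

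Spry4 is left out of the counts in this paragraph, since it was tested through its control values only. Of the other 7 tested genes, 1 was called lower (Fgfr2), where 4.88% of the 13961 tested genes were called lower, and 0 were called higher, where 0.0573% were. Fgfr2 alone among these 7 had an adjusted p no higher than 0.1, where 11.9% of all tested genes had one in either direction. With Fgfr1, at an unadjusted p of 0.0340, 2 of the 7 were lower at an unadjusted p of at most 0.05, where 15.2% of all tested genes were lower and 12.1% higher. The groups did not overlap, with deficient values lower, in 1 of the 7, where 16.4% of all tested genes showed this, and with deficient values higher in 0, where 15% did. The median log2 fold change was −0.69 over the 7 genes and −0.02 over all tested genes. Nothing particular to the list is read from a single call.

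Deficient over control, the ratio of mean summed CPM was 0.568 for the receptors, 0.548 for the embryonic markers and 0.813 for the 5 feedback genes. The summed CPM of Fgfr1 to Fgfr4 was 43.6, 47.9 and 29.3 in the controls and 26.5, 26.2 and 15.9 in the deficient libraries. Per 100 CPM of embryonic markers, this came to 9.41, 7.42 and 8.19 CPM in the controls, against 8.53, 10.3 and 6.68 CPM in the deficient ones, with overlapping groups. The summed CPM of Spry1, Spry2, Spry4, Etv4 and Etv5, to which Spry2 and Etv5 contributed most, was 22.9, 21.1 and 14.5 in the controls and 17.7, 15.5 and 14.3 in the deficient libraries. Per 100 CPM of embryonic markers these 5 genes had 4.94, 3.28 and 4.06 CPM in the controls, against 5.69, 6.10 and 6.04 CPM in the deficient ones. Every deficient library was above every control library. The marker sum itself was lower in the deficient libraries, so a gene of unchanged CPM also rises in this measure. With libraries scaled to embryonic markers, the median log2 fold change of all genes was 0.90, and 8679 of 13961 were called higher. Nothing particular to the feedback genes is read from this rise.

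Ratios between genes of a library do not depend on its scaling. The summed CPM of the 5 feedback genes over that of the receptors was 0.524, 0.441 and 0.496 in the controls and 0.667, 0.593 and 0.904 in the deficient libraries, without overlap. The ratio of Etv5 to Fgfr1 was 0.555, 0.368 and 0.676 in the controls and 0.747, 0.702 and 1.05 in the deficient libraries. That of Spry2 to Fgfr1 was 0.361, 0.247 and 0.324 in the controls and 0.476, 0.414 and 0.615 in the deficient libraries. The ratio was highest in deficient replicate 3 for each of these pairs. These pairs and sums were chosen with earlier results known, so they are given as values without a test. The denominators were lower in the deficient libraries (ratio 0.568 for the receptor sum, log2 fold change −0.81 for Fgfr1). Spry2 and Etv5 stood at −0.12, beside a median of −0.02 over all tested genes. A gene of unchanged CPM would also rise over these denominators, so nothing particular to the feedback genes is read from the ratios.

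**Figure D3:**
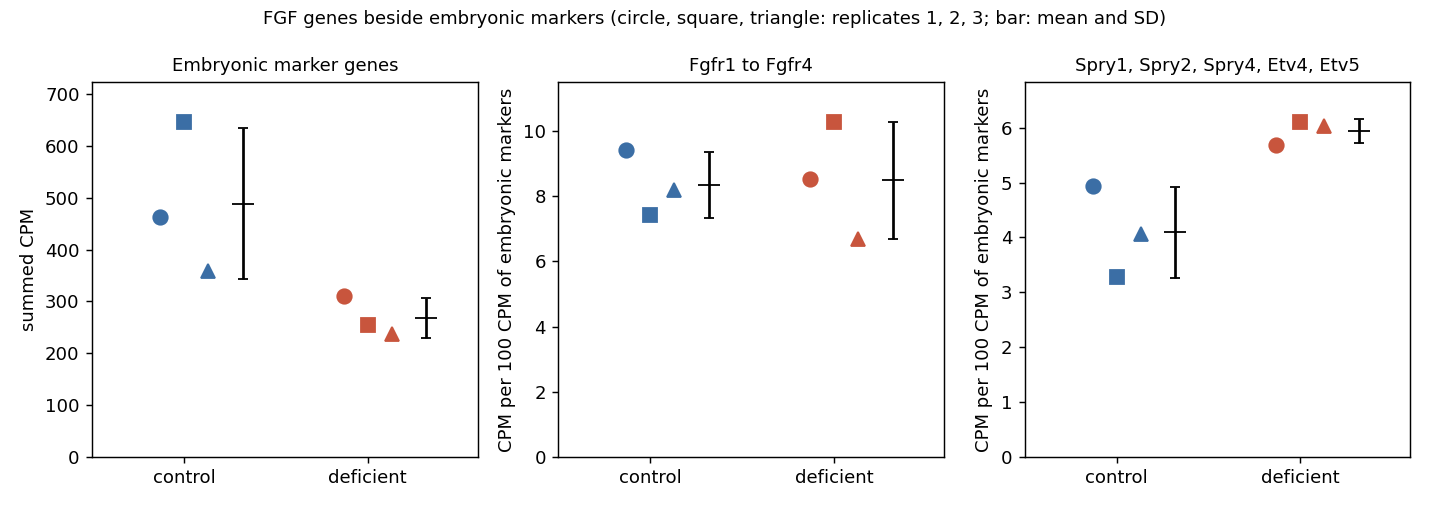
Summed CPM of 51 embryonic marker genes (left, y axis in CPM), and the summed CPM of the receptors Fgfr1 to Fgfr4 (middle) and of the 5 feedback genes (right) per 100 CPM of those markers, for each control and deficient library with group means and SD. The receptors come to 8.34 ± 1.01 CPM in the controls and 8.49 ± 1.80 CPM in the deficient libraries, and the feedback genes to 4.09 ± 0.831 and 5.94 ± 0.219 CPM. The marker sum is lower in the deficient libraries, so a gene of unchanged CPM also rises per 100 CPM of markers.

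When the libraries were scaled to the median level of 38 embryonic marker genes, the log2 fold changes became 0.18 for Fgfr1, 0.05 for Fgfr2, 0.26 for Fgfr3, 0.29 for Fgfrl1, 0.09 for Spry1, 0.84 for Spry2 and 0.81 for Etv5. Spry4 stayed negative at −1.11 (adjusted p = 0.103, edgeR, Benjamini-Hochberg). This scaling shifts all genes of a library together and moved the median of all genes to 0.90. Spry2 and Etv5 passed the call as higher on this scale, as did 8679 of all tested genes. The part of cell composition in these differences was not tested.

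The values rested on few libraries. The call of Fgfr2 was lost without control replicate 1 (adjusted p = 0.243), control replicate 2 (0.228) or deficient replicate 3 (0.154, all edgeR, Benjamini-Hochberg), and its log2 fold change stayed between −1.02 and −0.63. Fgfr1 was called without control replicate 3 (log2 fold change −1.08, adjusted p = 0.0158, edgeR, Benjamini-Hochberg), the control library with the lowest embryonic marker sum, and by DESeq2 (log2 fold change −0.80, adjusted p = 0.0266, Benjamini-Hochberg). Spry4 ranged from −2.39 to −1.61, the smaller value without control replicate 2, which had the highest embryonic marker sum. Its adjusted p was above 0.1 when control replicate 1 (0.229) or 2 (0.275) was left out, and likewise for deficient replicate 2 (0.121) or 3 (0.263, all edgeR, Benjamini-Hochberg). Fgfr3 ranged from −1.07 to −0.35 and Fgfrl1 from −0.91 to −0.33, and Fgfrl1 was smallest without control replicate 2. Spry1 ranged from −1.24 without deficient replicate 2 to −0.53 without deficient replicate 3, and stood at −0.54 without control replicate 1. Spry2 (0.09) and Etv5 (0.02) turned positive without control replicate 1.

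**Figure D4:**
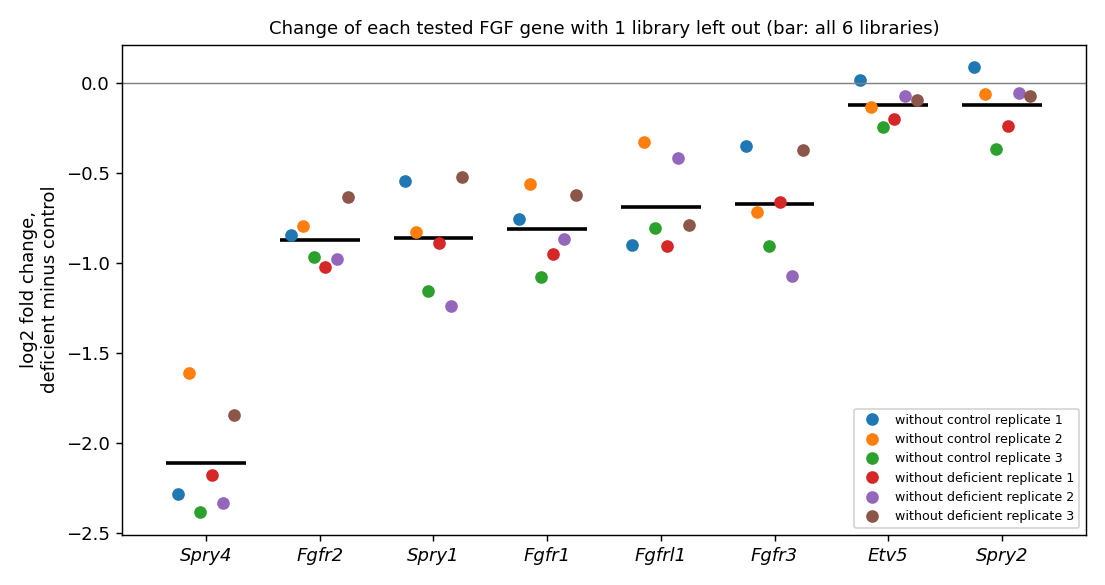
Log2 fold change (y axis, deficient minus control) of the 8 tested genes with all 6 libraries (black bars) and with each library left out in turn (coloured points). Spry4 stays at or below −1.61 and Fgfr2 between −1.02 and −0.63, while Spry2 and Etv5 lie on both sides of 0.

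The other genes of the pathway were taken from lists written by hand, and their counts are read beside the 4.88% of all tested genes called lower and the median log2 fold change of −0.02 over all genes. Among the ligands, 5 of 22 passed the filter on low counts, and none was called or had an unadjusted p of at most 0.05 (edgeR). Their log2 fold changes ran from −0.32 for Fgf15, at 1.02 CPM in the controls and 0.817 CPM in the deficient libraries, to 0.22 for Fgf14, a member that acts inside neurons, at 0.942 and 1.16 CPM. The other 17 ligands were not tested, and the counts describe the sorted cells only.

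Among coreceptors, glypicans, syndecans and heparan sulphate enzymes, 3 of 22 tested genes were called lower and 0 higher, and the list's median log2 fold change was −0.19. These were Flrt1, a membrane protein that binds FGF receptors (3.67 ± 1.17 CPM in the controls and 1.10 ± 0.538 CPM in the deficient libraries, SD, n = 3, log2 fold change −1.75), Sulf1, an extracellular enzyme that trims heparan sulphate (12.5 ± 3.47 and 4.51 ± 0.631 CPM, −1.47), and the glypican Gpc2 (4.95 ± 1.68 and 1.89 ± 0.854 CPM, −1.40). Their adjusted p values were 0.0660, 0.0393 and 0.0771 (edgeR, Benjamini-Hochberg). The largest difference upward was that of Ext1, a polymerase of heparan sulphate chains, at 44.3 and 51.8 CPM (log2 fold change 0.22, adjusted p = 0.129, edgeR, Benjamini-Hochberg).

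The adaptors and the Ras-Erk cascade, which serve many receptors, held 29 tested genes, of which 1 was called lower and 0 higher, and the list's median log2 fold change was 0.02. The called gene was Ksr1, a scaffold for Raf and Mek, at 4.40 CPM in the controls and 2.47 CPM in the deficient libraries (log2 fold change −0.83, adjusted p = 0.0949, edgeR, Benjamini-Hochberg). The largest value upward was that of Map2k1, which encodes Mek1, at 309.9 and 355.5 CPM (log2 fold change 0.20, adjusted p = 0.103, edgeR, Benjamini-Hochberg). The 14 macrophage markers lay between 0.15 and 0.25 on the same scale, and their part in the result was not tested.

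Of 13 tested further feedback genes of Erk signalling, 2 were called lower and 0 higher, and the list's median log2 fold change was −0.43. Il17rd, also known as Sef, a membrane inhibitor of FGF signalling, had 11.1 ± 2.26 CPM in the controls and 5.56 ± 1.49 CPM in the deficient libraries (SD, n = 3, log2 fold change −1.002, adjusted p = 0.0583, edgeR, Benjamini-Hochberg). Lrig1, a negative regulator of receptor tyrosine kinases, had 7.39 ± 1.45 and 3.70 ± 0.959 CPM (log2 fold change −1.001, adjusted p = 0.0710, edgeR, Benjamini-Hochberg). Its relative Lrig3 had the lowest log2 fold change of the list, −1.54, and did not pass (adjusted p = 0.107, edgeR, Benjamini-Hochberg), and Dusp5, an Erk phosphatase of the nucleus, had the highest, 0.20 (adjusted p = 0.125, edgeR, Benjamini-Hochberg). Dusp6, the cytoplasmic Erk phosphatase and a standard FGF readout, and Spred1, a relative of the Sprouty genes, were added after their values were seen. Dusp6 had 8.70 CPM in the controls and 5.36 CPM in the deficient libraries (log2 fold change −0.69, adjusted p = 0.147, edgeR, Benjamini-Hochberg). Spred1 rose by adjusted p alone, from 230.5 to 264.0 CPM (log2 fold change 0.20, adjusted p = 0.0828, edgeR, Benjamini-Hochberg), under the fold change a call requires. By adjusted p of at most 0.1 alone, 583 of the 13961 tested genes were higher. The 14 macrophage markers lay between 0.15 and 0.25 in log2 fold change, and their part in this rise was not tested.

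Among 12 tested immediate-early genes, which respond to Erk and also to cell dissociation, 1 was called lower and 0 higher. By adjusted p of at most 0.1 alone, without the fold change, 1 was lower and 3 were higher, where 1082 and 583 of the 13961 tested genes were. At an unadjusted p of at most 0.05 there were 1 lower and 5 higher (edgeR), where 15.2% and 12.1% of all tested genes were. The log2 fold changes of these 5 lay between 0.16 and 0.23, and those of the 14 macrophage markers between 0.15 and 0.25. The part of macrophages in this was not tested. Egr1 had 6.18 CPM in the controls and 3.46 CPM in the deficient libraries (log2 fold change −0.82, adjusted p = 0.0863, edgeR, Benjamini-Hochberg). Ier3 lay highest at 0.23, with 65.5 and 76.7 CPM (adjusted p = 0.0960, edgeR, Benjamini-Hochberg). The median of this list was 0.04. The calls of these lists rested on few libraries. Without control replicate 1 no gene of any list was called, in a fit that called 0 genes in all and in which 2547 genes had an unadjusted p of at most 0.05 (edgeR). With another library left out, the immediate-early list held 0 calls without control replicate 2 or any 1 of the deficient replicates. The further feedback list held 0 without control replicate 2 and without deficient replicate 2 or 3. The adaptor list held 0 without control replicate 2 and without deficient replicate 1 or 3. The coreceptor list held between 1 and 6 calls in these fits. Over all genes, 61 and 1245 were called without control replicates 2 and 3, and 1037, 264 and 17 without deficient replicates 1 to 3. Ksr1 also lost its call with offsets for exon length and with a filter at a mean of 2 CPM.

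The genes whose profiles over the 6 libraries came closest to each tested gene were found by the root mean square difference of log2 CPM centred on each gene's mean, with a prior count of 2. They were Epm2aip1 for Fgfr1 (0.0622), Arhgef10 for Fgfr2 (0.0485), Lrrc9 for Fgfr3 (0.101), Itga11 for Fgfrl1 (0.125), Troap for Spry1 (0.115), Cks1b for Spry2 (0.0753), Mfap4 for Spry4 (0.106) and Rtl8a for Etv5 (0.0480). Within the group, the closest pairs were Fgfr3 with Spry1 (0.114), Spry2 with Etv5 (0.154) and Fgfr1 with Fgfr2 (0.235), and the most distant was Spry4 with Etv5 (0.879). The measure is a description over 6 libraries that share their group difference.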

How the data were processed

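RNA of sorted NCCs was sequenced in 3 control and 3 deficient libraries. Per the labels and methods, the authors trimmed reads with cutadapt 1.18, aligned them to GRCm38 with STAR and deposited whole-number counts per gene from featureCounts, without normalization. The annotation release, strand setting and handling of reads with several matches are not given in the sources used here. Identifiers were matched without version to GENCODE M21, which named 46488 of 46983.

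Genes were filtered by edgeR 4.0.16 (at least 10 counts at the median depth in 3 libraries and 15 in all), normalized by TMM and tested by its robust quasi-likelihood test in R 4.3.3, unpaired, with Benjamini-Hochberg adjustment over 13961 genes. The study used limma. DESeq2 1.42.0, limma-voom 3.58.1, other scalings, filters and thresholds and leave-one-out fits were tried as alternatives. The script was tested on simulated data. Intervals for ratios of counts are exact and cover counting error only. Totals of 8191219 to 19808620 counts leave genes under 1 CPM with few reads.

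Named genes were the 10 genes, the targeted genes, the called genes and largest fall and rise of each pathway list, and the nearest profile to each tested gene among the genes searched. Dusp6 and Spred1 fall outside this rule and were chosen after their values were seen. Members and lists were chosen with earlier results of these data known.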

Additional observations from a re-analysis of the deposited data

How the results depend on the processing

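The 8 tested genes kept a negative log2 fold change under every alternative in which they were tested, except in 2 fits. Scaled to embryonic markers, Fgfr1 stood at 0.18, Fgfr2 at 0.047, Fgfr3 at 0.26, Fgfrl1 at 0.29, Spry1 at 0.092, Spry2 at 0.84 and Etv5 at 0.81, under a median of all genes of 0.90, and Spry4 at −1.11 (adjusted p above 0.1). With a library left out, Spry2 ranged from −0.37 to 0.089 and Etv5 from −0.24 to 0.016, both positive only without control replicate 1, and Fgfr1 ranged from −1.08 to −0.56, Fgfr2 from −1.02 to −0.63 and Spry4 from −2.39 to −1.61. Fgfr1 had an adjusted p under 0.1 with DESeq2 (−0.80), quality weights (−0.84) and no filter on low counts (−0.76). The number of genes called, 689 here, was 1278 with limma-voom quality weights, 8741 scaled to embryonic markers, 94 at an adjusted p of at most 0.05, 1665 at an adjusted p of at most 0.1 alone, and 0 to 1245 with a library left out. The lowest, 0 by edgeR without control replicate 1, came with 2547 genes at an unadjusted p of at most 0.05. The number of FGF genes called lower, 1 here, was 2 (Fgfr1 and Fgfr2) with DESeq2, with quality weights and without a filter on low counts. DESeq2 called 874 of the 13961 tested genes lower, quality weights 1251 and the fit without a filter 982 of 32523. At an adjusted p of at most 0.1 alone the number of FGF genes was 2 (Fgfr2 and Spry4), where 1082 of the 13961 tested genes were lower. Of these 2, Spry4 was tested through its control values only. The number was 0 scaled to embryonic markers and at an adjusted p of at most 0.05, and 0 to 2 with a library left out. Scaled to embryonic markers, 2 were called higher, where 8679 of the 13961 tested genes were.

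Of the pathway lists, the coreceptors (3 called here) held 6 calls with quality weights and with no filter, 11 scaled to embryonic markers, 1 at an adjusted p of at most 0.05 and 0 to 6 with a library left out. The adaptors (1 called) held 2 with limma-voom, quality weights and no filter, 24 scaled to embryonic markers, 0 with exon length offsets, with the 2 CPM filter and at an adjusted p of at most 0.05, and 0 to 2 with a library left out. The further feedback genes (2 called) held 4 with quality weights, no filter and an adjusted p alone, 5 scaled to embryonic markers, 0 at an adjusted p of at most 0.05 and 0 to 5 with a library left out. The immediate-early genes (1 called) held 8 scaled to embryonic markers, 4 at an adjusted p alone, 0 at an adjusted p of at most 0.05 and 0 to 1 with a library left out. The causes were not tested. Over all genes, limma-voom called 836, quality weights 1278 and the scaling to embryonic markers 8741 of 13961 tested genes. The fit with no filter called 1015 of 32523, exon length offsets 631 of 13961 and the 2 CPM filter 529 of 11787. There were 94 at an adjusted p of at most 0.05 and 1665 at an adjusted p alone. Nothing particular to a list is read from these counts.

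With the replicate number as a block, 1164 genes and 3 of the FGF genes were called (Fgfr1 at −0.78, Fgfr2, and Fgfr3 at −0.71), with 5 coreceptors, 2 adaptors and 4 further feedback genes. Same-numbered libraries had correlations of 0.0284, −0.0335 and 0.293 in their deviations from the group means, the last being the highest of any pair. Control replicate 2 correlated best with deficient replicate 1 (0.261). The replicate numbers, also those of the block, are from the sample titles. The sample descriptions number the deficient libraries differently. There, control replicate 2 shares its number with deficient replicate 1, and control replicate 3 with deficient replicate 2 (0.000418). Deviations of 3 libraries from their own mean depend on each other, so these values cannot decide whether the numbers pair the samples. Depth limits Fgfr4, Etv4, Spry1 and Spry4, all under 2 CPM on average.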
